A study of Rattus norvegicus with 6 samples.

Results

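Regions of the rat genome that carried a CUT&Tag peak of H3K9la and of H4K8la in untreated tenocytes, and no peak in any of the study's other libraries, numbered 3457 of 176698 merged regions (1.96%). They were chosen by the peak calls themselves. The peaks of all 6 lists were pooled, peaks that shared at least 1 bp were merged into regions, and a region was kept when it held a peak of H3K9la control and of H4K8la control and none of H3K9la lactate, H4K8la lactate, H4K16la lactate or H4K16la control. The number of such regions and the absence of the other peaks are therefore set by the rule and are given as a description. The cells were wild-type tenocytes, the fibroblast-like cells of tendon, cultured in 1640 medium. For each of the 3 marks there was 1 library of cells given 20 mM lactate and 1 library of untreated cells, called control. Strain, sex, age and the number of animals were not given in the sources used here. Since each group is 1 library, nothing here has a replicate check or a p-value, and all intervals cover counting error only. Positions are on build rn7, counted from 1. The regions are given without genes or sequence, because no genome of that build was used here, and the tenocyte label could not be set against marker genes.

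Histone lactylation is the attachment of a lactyl group, made from lactate, to a lysine of a histone. H3K9la lies on the tail of histone H3, and H4K8la and H4K16la lie on the tail of histone H4. The same lysines can carry an acetyl group, and enzymes of both the acetyltransferase and the deacetylase families are known to add and remove lactyl groups. In other cell types lactylated histones have been mapped to promoters and enhancers of active genes, and glycolysis, which makes lactate, is known to feed the mark. In CUT&Tag an antibody holds a transposase at chromatin that carries the mark, so a peak is a stretch where more fragments were released than in its surroundings.

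Depth differed between the libraries. A list of peaks holds no read total. As a measure of depth the genome-wide background was recovered from the deposited values, that is, how many fragments cover an average base. It was 2.17 in H3K9la control and 1.32 in H4K8la control, the lists that define the regions. Among the other lists it was 1.88 in H3K9la lactate, 1.55 in H4K8la lactate, 2.84 in H4K16la lactate and 1.53 in H4K16la control. H3K9la control and H4K8la control held 61850 and 61347 peaks, and the other lists between 40681 and 62563.

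Among the 15 ways in which a region can have a peak in exactly 2 lists, H3K9la control with H4K8la control was the most frequent. Its 3457 regions were followed by 3117 with H3K9la control and H4K16la lactate alone, and by 2213 with H4K8la control and H4K16la lactate alone. The same marks in lactate-treated cells, H3K9la lactate with H4K8la lactate alone, gave 775 regions. The members outnumbered these by a factor of 4.46 (95% counting interval 4.13 to 4.82). List length was unequal, so the shares of the lists are given as well. The members took 5.65% of the regions with H3K9la control and 5.70% of those with H4K8la control, against 1.68% of the H3K9la lactate regions and 1.83% of the H4K8la lactate regions for the lactate arrangement. The arrangement next in number, H3K9la control with H4K16la lactate alone, was close, with 5.09% and 5.02% of the regions of its lists. Of all regions with both peaks of the pair, 13.2% were members, and 13.1% held that next pair alone. Within untreated cells, the members were 2.61 times as many (2.45 to 2.78) as the 1324 regions with H3K9la control and H4K16la control alone. They were 3.03 times as many (2.83 to 3.24) as the 1141 with H4K8la control and H4K16la control alone, and the H4K16la control list was the shortest of the 6.

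**Figure D1:**
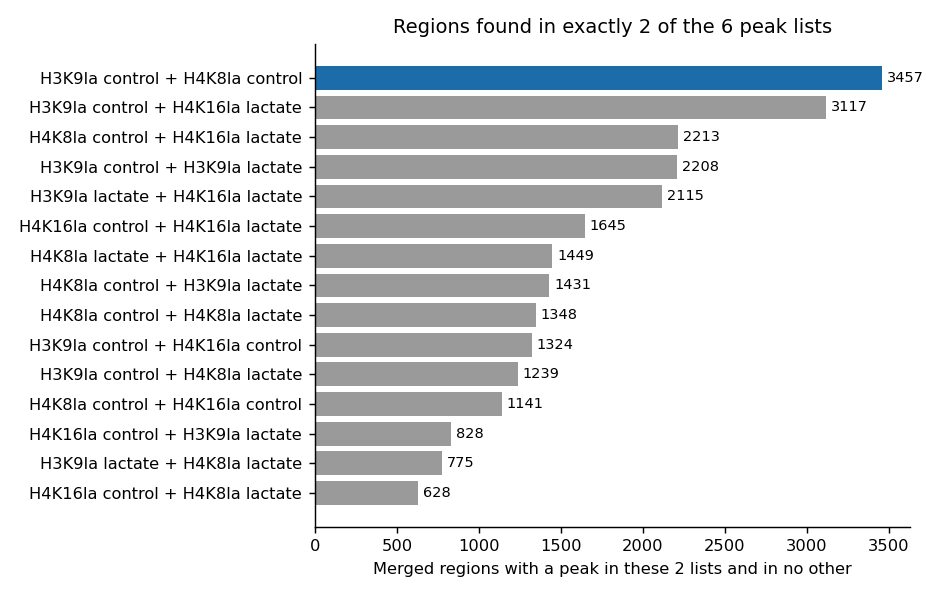
Number of merged regions (horizontal axis) for each of the 15 arrangements with a peak in exactly 2 lists; each bar is 1 arrangement and the blue bar holds the members. The members, at 3457, have the longest bar, and the same marks with lactate, at 775, the next to shortest.

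The arrangement stayed first when weak peaks were set aside. With only peaks of −log10 q of at least 5 in all lists, where q is the caller's false discovery rate for the peak, H3K9la control with H4K8la control alone was again the most frequent arrangement with 1914 regions. The next, H3K9la control with H4K16la lactate alone, had 918, and H3K9la lactate with H4K8la lactate alone had 68, the fewest of the 15. At this threshold the lists held 19455 peaks for H3K9la control and 18522 for H4K8la control, against 9520 for H3K9la lactate and 8531 for H4K8la lactate. The 1914 regions are not all members, since a weak peak of another list does not count against a region here. Of the members themselves, 252 had both peaks at −log10 q of at least 5 and no deposited peak of any strength in the other lists.

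By −log10 q the members were weaker than regions found in all lists and stronger than regions found in 1 list. The values of single peaks given here are the authors', as the peak caller wrote them, and where a list had more than 1 peak in a region, as in 27 members, the strongest was taken. The H3K9la peak of a member had a median −log10 q of 3.64 (quartiles 2.73 and 4.95) and a median fold over local background of 3.20. The H4K8la peak had a median −log10 q of 3.51 (2.65 and 4.80) and a median fold of 3.70. In the 7268 regions with a peak in all 6 lists the medians of −log10 q were 7.60 for H3K9la control and 8.75 for H4K8la control. In regions found in a single list they were 2.87 for H3K9la control alone (21455 regions) and 2.65 for H4K8la control alone (24022 regions). Over the whole lists they were 3.74 for H3K9la control and 3.60 for H4K8la control, close to the members. The other arrangements of 2 lists had 3.33 to 3.59 for H3K9la control and 3.21 to 3.50 for H4K8la control. By fold the order differed for H3K9la, with a median of 3.20 in members, 4.29 with all 6 lists and 3.25 with H3K9la control alone. For H4K8la the order was kept, with 3.70 in members, 4.98 with all 6 lists and 3.59 with H4K8la control alone. Counted in fragments, the median summit of a member had 20 H3K9la fragments and 14 H4K8la fragments. An exact Poisson interval is 12.2 to 30.9 around 20 fragments and 7.65 to 23.5 around 14, so single summits are known with wide error.

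Few members were strong for either mark. An H3K9la peak with −log10 q of at least 10 was present in 51 members (1.48%) and an H4K8la peak of that strength in 32 (0.93%), and no member had both. In the regions common to all 6 lists the shares were 30.0% and 40.7%. In regions with H3K9la control alone and H4K8la control alone they were lower than in members, at 0.18% and 0.17%. Over the whole lists, 3735 of 61850 H3K9la control peaks and 4465 of 61347 H4K8la control peaks reached 10. Spearman's rho between H3K9la and H4K8la over the 3457 members was 0.14 for −log10 q, 0.38 for fold and 0.69 for summit pileup over the genome-wide background, all from 1 library per mark and from shared regions.

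**Figure D2:**
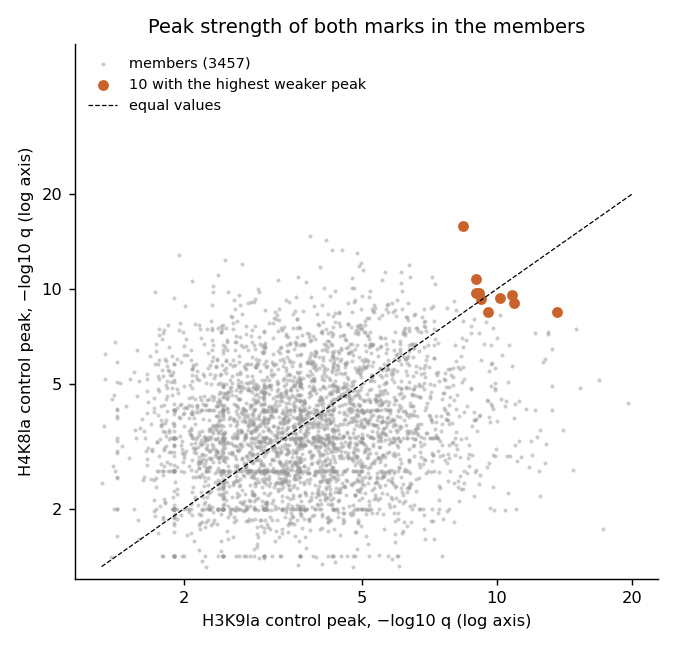
−log10 q of the H3K9la control peak (horizontal, log axis) and of the H4K8la control peak (vertical, log axis) in each of the 3457 members, with the 10 members of highest weaker peak in orange and a dashed line of equal values. The cloud is broad around medians of 3.64 and 3.51, and no point reaches 10 on both axes.

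Ranked by the weaker of its peaks, the first member lay on chromosome 16 from 21492992 to 21493773. Its H3K9la summit had 41 fragments, a fold of 4.19 and a −log10 q of 10.8. Its H4K8la summit had 24 fragments, a fold of 5.59 and a −log10 q of 9.54, and the summits were 57 bp apart. The nearest peak of any other list, from H3K9la lactate, was 2382 bp away.

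The second, on chromosome 1 from 234398600 to 234399976, had both summits at the same base. It held 43 H3K9la and 28 H4K8la fragments there, with −log10 q of 10.2 and 9.37, and the nearest peak of another list was 15316 bp away. The third, on chromosome 2 from 60094404 to 60095468, had close values for the marks, with −log10 q of 9.22 for H3K9la and 9.32 for H4K8la from 37 and 23 fragments. The fourth, on chromosome 11 from 31566536 to 31566841, had the smallest width of any member, 306 bp, and its peaks had 31 and 21 fragments and −log10 q of 9.11 and 9.71. Narrow and wide regions therefore stood side by side at the top of the ranking, where widths ran from 306 to 1377 bp.

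Further down the first 10, the region on chromosome 3 from 8368733 to 8370036 had the most fragments, 65 for H3K9la and 62 for H4K8la, yet folds of 2.75 and 3.10. Its local background was 23.0 fragments for H3K9la and 19.3 for H4K8la, so the tall summits stood in a stretch of high coverage. Another member lay 852 bp from it. The other members of the first 10 lay on chromosome 4 (132080061 to 132081340), chromosome 2 (196687595 to 196688832), chromosome 20 (4089880 to 4090688), chromosome 8 (78987793 to 78988169) and chromosome 15 (39816230 to 39816698). Their weaker peak had a −log10 q between 8.38 and 9.04. Within these 10 the nearest peak of another list was between 1652 and 15316 bp away.

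Most of the strongest single peaks stood beside a much weaker peak of the other mark. They were picked for the highest values of a single mark, so a lower partner goes with the choice. Most of these partners were still above the members' median −log10 q of 3.64 for H3K9la and 3.51 for H4K8la. The highest H3K9la value, a −log10 q of 19.6 with 50 fragments and a fold of 5.97, was on chromosome 8 from 45419437 to 45421269, where H4K8la had 17 fragments and a −log10 q of 4.33. On chromosome 3 from 34930374 to 34930923 the H3K9la peak reached 17.2 with 43 fragments while the H4K8la peak, with 9 fragments and a −log10 q of 1.73, was close to the calling threshold. A peak of H4K16la control lay 135 bp from that region and one of H4K8la lactate 154 bp from it. For H4K8la the highest −log10 q was 15.9, with 30 fragments and a fold of 7.69, at the member on chromosome 15 from 39816230 to 39816698 named among the first 10. The next was on chromosome 19 from 45274856 to 45275518, with a −log10 q of 14.7 for H4K8la (31 fragments) and 3.83 for H3K9la (18 fragments).

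How often both control peaks stood alone differed with their strength. The strengths come from the same peaks whose calls chose the members, so the shares are a description. In all, 26217 regions had a peak of H3K9la control and of H4K8la control. None of the other 4 lists had a peak in 13.2% of them, and all 4 had one in 27.7%. Where the weaker control peak had a −log10 q below 2, 477 of 1461 regions (32.6%, Wilson 95% interval 30.3 to 35.1) were members. The share was 25.8% (24.7 to 27.0) between 2 and 3, 16.2% (15.3 to 17.2) between 3 and 4 and 9.24% (8.42 to 10.1) between 4 and 5. It was 4.52% (3.97 to 5.14) between 5 and 7 and 1.07% (0.75 to 1.51) between 7 and 10, and 0 of 1535 regions at 10 or more, which allows a share of up to 0.195%. The share with a peak in all 6 lists ran the other way, with 5.41% in the lowest class and 85.8% in the highest.

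**Figure D3:**
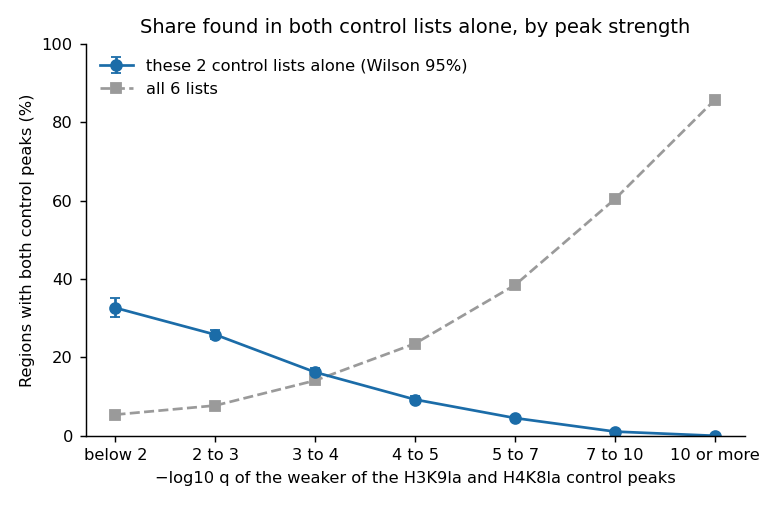
Regions with peaks of H3K9la control and H4K8la control, split by the −log10 q of the weaker of these peaks (horizontal), with the percentage found in these lists alone (blue, Wilson 95% intervals) and in all 6 lists (grey). The blue share is 32.6% in the lowest class and 0 in the highest, and the grey share 5.41% and 85.8%.

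H4K8la stood higher over its background than H3K9la in most members. Divided by the genome-wide background of its list, the summit pileup had a median of 9.22 for H3K9la and 10.6 for H4K8la, a median log2 difference of −0.21. H3K9la was the higher in 1093 members (31.6%) and H4K8la in 2364. The difference exceeded 2-fold in 11 members toward H3K9la and in 190 toward H4K8la. In the regions common to all 6 lists the median log2 difference was −0.61 and H3K9la was the higher in 17.7%. These ratios compare an antibody and library with another and are not levels of the marks. Depth differed as well, with a genome-wide background of 2.17 in H3K9la control and 1.32 in H4K8la control, and its part in the ratio was not tested. At that background a call needed at least 8 fragments in H3K9la control and 6 in H4K8la control. Relative to background the bar was thus higher for H4K8la. Members passed both calls, so the direction is given as a description. Judged by −log10 q, which depends on depth, H3K9la was the higher in 52.2% of members.

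The distance between the summits of the marks had a median of 175 bp (quartiles 72 and 320), and 32.3% of members (Wilson 30.7 to 33.9) had summits within 100 bp. In 53.9% of members each summit lay inside the peak of the other mark. Regions common to all 6 lists had a median distance of 142 bp and 39.8% (38.7 to 40.9) within 100 bp, while regions with exactly 1 further list had 181 bp and 31.4% (30.1 to 32.7), and those with 2 further lists 180 bp and 32.7%. The rule asks that the peaks overlap, which with these widths holds the summits within a limited distance, so the values are a description. The widths differed between these sets. Members had a median width of 479 bp for H3K9la and 476 bp for H4K8la, against 783 and 902 bp in regions common to all 6 lists. The merged member was 694 bp wide in the median, with a range of 306 to 2851 bp. The peaks shared a median of 319 bp, or 85.8% of the shorter peak. One peak lay wholly inside the other in 1101 members (31.8%), and the shared stretch was under 50% of the shorter peak in 731 (21.1%).

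In the 3 widest members a long H4K8la peak met a shorter H3K9la peak. On chromosome 1 from 203095465 to 203098315 the summits were 2229 bp apart, with 43 H3K9la and 57 H4K8la fragments, and the peaks were 839 bp wide for H3K9la and 2405 bp for H4K8la. On chromosome 7 from 20145360 to 20148116 a single H4K8la peak of 2757 bp covered an H3K9la peak of 621 bp. On chromosome 1 from 206686018 to 206688732 an H4K8la peak of 2715 bp covered an H3K9la peak of 302 bp, and the summits were 1332 bp apart.

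At the edges of the rule the members were close to their neighbours outside it. The smallest overlap was 1 bp, on chromosome 4 from 36200684 to 36201783, where peaks with −log10 q of 3.64 for H3K9la and 3.35 for H4K8la met, and 334 members shared at most 100 bp. Just outside, 163 regions with H3K9la control alone had a region with H4K8la control alone within 100 bp and no base in common. On chromosome 5 from 115774701 to 115775864 an H4K16la control peak began or ended right at the border of the member without sharing a base, and 83 members had a peak of another list within 100 bp. The weakest peak of any member, with a −log10 q of 1.31 for H4K8la, was on chromosome 4 from 133279334 to 133280055, and in 94 members the weaker peak was below 1.5.

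The recovered local background was above the genome-wide level around most members, as it was around other regions with both control peaks. Its lowest value in members was the genome-wide one itself, 2.17 for H3K9la control and 1.32 for H4K8la control. Lower coverage therefore could not be read from these values, and that most of them lay above the genome-wide level is a description. The caller's local background, divided by the genome-wide background of the list, had a median of 2.42 for H3K9la control (quartiles 1.56 and 3.70) and 2.10 for H4K8la control (1.36 and 3.39). It was 1.50 for regions with H3K9la control alone and 1.22 for regions with H4K8la control alone. The other arrangements of 2 lists that include H3K9la control had medians of 1.59 to 1.96, and those that include H4K8la control 1.42 to 1.93. Regions with both control peaks and 1, 2 or 3 further lists had 2.50, 2.56 and 2.48 for H3K9la control and 2.25, 2.39 and 2.63 for H4K8la control, and regions common to all 6 lists had 2.44 and 3.11. The members were thus below the other regions with both control peaks for H4K8la control (2.10 against 2.25 to 3.11). For H3K9la control the medians were close (2.42 against 2.44 to 2.56). The local backgrounds of both marks went together over the members (Spearman's rho 0.86). These values come from the lists that chose the members and are a description. How long a stretch the caller used was not stated, and it may include the peak itself.

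Where another list had a peak within 5 kb of a member, its own local background there could be read as well. It was mostly lower than that of H3K9la control and H4K8la control. At the 911 members near an H3K9la lactate peak, H3K9la control had a median of 3.23 times its genome-wide background, against 2.31 for H3K9la lactate, and H3K9la control was the higher at 87.9% of them (Wilson 85.6 to 89.9). At the 756 near an H4K8la lactate peak, H4K8la control had a median of 3.35, against 2.11 for H4K8la lactate, and was the higher at 86.9% (84.3 to 89.1). The values were read at different peaks, up to 5 kb apart, and the rule chose places where the control list had the peak. At the 1004 near an H4K16la lactate peak, H3K9la control had 2.86 and H4K8la control 2.55, against 1.69 for H4K16la lactate. At the 715 near an H4K16la control peak, H3K9la control had 3.05 and H4K8la control 2.95, against 2.08 for H4K16la control. Across the 8 comparisons of a list of the rule with another list, the list of the rule was the higher at 73.0% to 87.9% of members.

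At single-list regions the same reading was made as a description. Around regions with H3K9la control alone its local background was the higher at 58.9% to 71.6%, and around regions with H4K8la control alone at 48.6% to 63.4%. Members already had the higher local background in their own lists, with 2.42 for H3K9la control and 2.10 for H4K8la control, against 1.50 and 1.22 at single-list regions, so the larger shares at members are not a separate result. Local background enters the peak call, and members with such a neighbour are 20.7% to 29.0% of the whole, depending on the list, so these values describe that subset. The lists differ in depth and in the place where each was read, and the part of either in the difference was not tested.

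**Figure D4:**
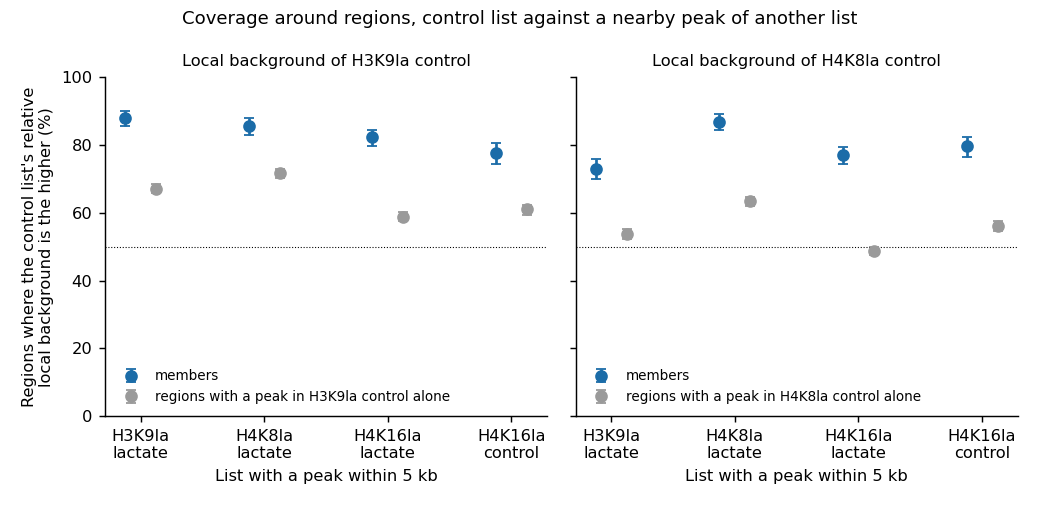
Percentage of regions where the local background relative to the genome-wide one is higher in H3K9la control (left) or H4K8la control (right) than in another list with a peak within 5 kb (horizontal), for members (blue) and for regions found in that control list alone (grey); bars are Wilson 95% intervals and the dotted line marks 50%. Blue points lie between 73.0% and 87.9% and grey points between 48.6% and 71.6%.

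Peaks of the absent lists were present near many members. At least 1 of the other 4 lists had a peak within 5 kb of 1943 members (56.2%, Wilson 54.5 to 57.9), and all 4 had one there at 136 (3.93%). Neither count was made over other regions, so they do not set the members apart. The single lists were compared. H3K9la lactate had a peak within 5 kb of 26.4% of members (24.9 to 27.8), against 19.4% of all regions without a peak of that list. For H4K8la lactate it was 21.9% (20.5 to 23.3) of members, against 17.1% of all regions without its peak. For H4K16la lactate it was 29.0% (27.6 to 30.6), against 26.0%, and for H4K16la control 20.7% (19.4 to 22.1), against 16.6%. Within 5 kb the share was thus above that of all such regions for each list, but for H4K16la lactate this turned at shorter distances, with 6.91% of members (6.11 to 7.81) against 7.03% within 1 kb and 2.72% (2.23 to 3.32) against 3.62% within 500 bp. Regions with H3K9la control alone were closer to the members, with 23.8% for H3K9la lactate, 19.9% for H4K8la lactate, 29.1% for H4K16la lactate and 19.6% for H4K16la control. The last lies inside the members' interval, and for H4K16la lactate the members were not higher. Regions with H4K8la control alone were below the members, with 21.1%, 18.7%, 27.4% and 18.1% in the same order. Within 500 bp these regions were above the members for H3K9la lactate (3.09% against 3.01%) and H4K16la lactate (4.25% against 2.72%). They were also above for H4K16la control (2.89% against 2.63%), but not for H4K8la lactate (3.26% against 3.70%). The differences were not tested.

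The lists of the rule had further peaks close by more often than that. Another H3K9la control peak lay within 5 kb of 36.4% of members (34.9 to 38.1), against 27.1% (26.5 to 27.7) of regions with H3K9la control alone and 18.8% (17.9 to 19.7) of regions common to all 6 lists. Another H4K8la control peak lay within 5 kb of 35.4% (33.9 to 37.0), against 22.4% (21.9 to 22.9) of regions with H4K8la control alone and 18.8% (18.0 to 19.8) of regions common to all 6 lists. Read across the lists, the gaps were smaller. An H3K9la control peak lay within 5 kb of 29.2% (28.6 to 29.7) of regions with H4K8la control alone. An H4K8la control peak lay within 5 kb of 32.4% (31.8 to 33.0) of regions with H3K9la control alone. The share over all regions was not computed, so these shares do not set the members apart from regions at large. Regions common to all 6 lists were also wider, with a median of 1233 bp against 694 bp in members. The part of width in these shares was not tested.

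A few members were isolated. The one farthest from any peak of the other 4 lists, at 82544 bp, was on chromosome 15 from 16095181 to 16096350, with 17 H3K9la fragments (−log10 q 4.98) and 20 H4K8la fragments (−log10 q 12.1, fold 8.01). Next came the member with the 1 bp overlap on chromosome 4, at 60054 bp. A member on chromosome 1 (233025737 to 233026823) was 53408 bp from such a peak, one on chromosome X (105066996 to 105067508) 51955 bp and one on chromosome 10 (954584 to 955016) 51003 bp. In all of these but the first the local background was the genome-wide one for both marks, and the summits had 12 to 15 H3K9la fragments and 9 to 14 H4K8la fragments.

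Members lay near each other. Another member was within 50 kb of 1016 of them (29.4%, Wilson 27.9 to 30.9), against 18.5% (17.2 to 19.9) for the 3117 regions with H3K9la control and H4K16la lactate alone, the arrangement nearest in number. The median gap to the next region of the same arrangement was 124310 bp for members and 177420 bp for that arrangement. Members with another member within 50 kb had a relative local background of 3.14 for H3K9la and 2.71 for H4K8la, and the other 2441 members had 2.17 and 1.92. The closest members were 222 bp apart.

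The densest stretches held few members. Within 50 kb the most was 4, reached by 7 stretches, of which a pair on chromosome 11 overlapped. The one with the fewest other regions spanned 40079 bp on chromosome 8 from 44430354 to 44470432, where 4 of 6 regions were members. Their H3K9la summits had 22, 24, 37 and 21 fragments and their H4K8la summits 13, 12, 29 and 18, all with −log10 q between 2.05 and 5.96. By 1 Mb windows, the most was 11 of 112 regions on chromosome 1 from 223000001 to 224000000. The highest H3K9la value among these, on chromosome 1 from 223664369 to 223665695, was a −log10 q of 10.0, beside 3.81 for H4K8la. Members were found in 1429 windows, and 513 of these held 1.

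Members were found on every autosome, mostly in proportion to all merged regions. Chromosome 1 held 388 (11.2%), the most. The Wilson interval of the members' share excluded the share of all merged regions on chromosome 9, with 5.26% (4.57 to 6.06) against 4.42%, and on chromosome X, with 1.85% (1.45 to 2.36) against 2.78%. These intervals were not adjusted for the number of chromosomes compared. The share of members on X lay between those of their own lists, since 1.55% of the H3K9la control regions and 2.30% of the H4K8la control regions were there, and 1.32% of all regions with both. Against all regions with both, the members' interval thus lay higher on X. It also lay higher on chromosome 9 (5.26% against 4.45%) and 18 (3.79% against 3.16%). On chromosomes 8 (4.86% against 5.66%) and 10 (5.84% against 6.93%) it lay lower, again without adjustment. None of the 3457 members was on Y, which allows a share of up to 0.087%, and Y held 42 of all merged regions.

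**Figure D5:**
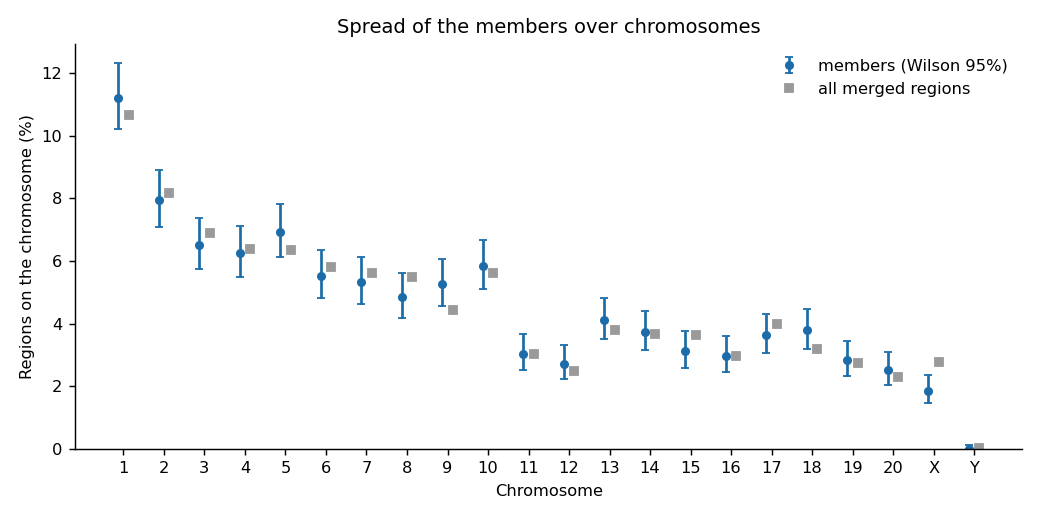
Percentage of the 3457 members (blue, Wilson 95% intervals) and of all 176698 merged regions (grey) on each chromosome. Most grey squares fall inside the blue intervals, and X, at 1.85% against 2.78%, shows the widest relative gap among chromosomes with members.

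Absence of a peak means that the list's calling threshold was not passed. At the genome-wide background the fewest fragments that reach the lowest −log10 p called was 8 in H3K9la control and 6 in H4K8la control. It was 8 in H3K9la lactate, 7 in H4K8la lactate, 10 in H4K16la lactate and 7 in H4K16la control. The summit and local background of each member's H3K9la peak were scaled to the depth of another list. Of members, 5.58% fell below the lowest value called in H3K9la lactate, 12.0% in H4K8la lactate, 0 in H4K16la lactate and 14.4% in H4K16la control. Scaled from the H4K8la peak, the share was 0 for H3K9la lactate and H4K16la lactate, 0.058% for H4K8la lactate and 1.30% for H4K16la control. H4K8la control had the lowest genome-wide background, so scaling from it raised every summit, by 1.16 to 2.15 times. Scaling from H3K9la control to H4K16la lactate raised them 1.31 times. A peak that had passed its own call could then hardly fall below another, so the shares of 0 were nearly fixed beforehand. The part of depth in the absent calls was not tested. Members were kept because both summits passed, so these summits lean high and the shares lean low. The scaled values compare different antibodies and do not show what the other libraries held at these sites.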

How the data were processed

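The files are 6 lists of narrow peaks, 1 per CUT&Tag library, with no pooled list. The submitters' processing notes name MACS2, Bowtie2, cutadapt, FastQC and deepTools with build rn7. Settings, and whether an IgG library entered peak calling, were not given in the sources used here. In the deposited files the score is a whole-number form of the −log10 q and was not used. The deposited fold column is a ratio of summit pileup to local background, and the authors' −log10 p and −log10 q describe single peaks (lowest −log10 q 1.30 to 1.31, a q of 0.05). Other deposited columns hold positions.

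Groups came from the sample titles; the free-text treatment field was set aside, since it names lactate throughout. Peaks sharing at least 1 bp were merged. Whole-number pileups and local backgrounds were solved from fold and −log10 p, taking fold as (pileup + 1) over (background + 1) and p as an upper Poisson tail, within 0.002. This reading is inferred from the values; 1 peak, in H4K16la lactate, had no solution. If an IgG library entered, local backgrounds come partly from it. The most frequent local background of a list was taken as its genome-wide background. The code was tested on simulated data. Relative values are pileup or local background over that background. Shares have Wilson intervals, a count of 0 has a floor of 3 counts, and PCR copies are not independent, so both cover counting error only. Regions named are the 10 with the highest weaker −log10 q, the 5 highest per mark, the 3 widest, the 5 farthest from other lists, the densest 50 kb and those at the edges of the rule; the densest 1 Mb window and its member of highest H3K9la were chosen after values were seen. Members, comparisons and lists were chosen with earlier results of these data known. Gene lists were not analysed, because the gene table at hand is of another assembly. Python 3.11.15, numpy 2.4.6, pandas 2.3.3, scipy 1.17.1 and matplotlib 3.10.9 were used.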

Additional observations from a re-analysis of the deposited data

How the results depend on the processing

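The number of members, 3457, stayed within 1.5 times under 7 of 11 alternatives. These were peaks of −log10 q of at least 2, overlaps covering 50% or more of the shorter peak, joining over 500 bp, and, chosen after seeing the data, leaving out each of the other lists in turn (4301 to 4825). It was 1914 with −log10 q of at least 5 in all lists, 252 with both control peaks at 5 and absence by any peak, 1936 with summits within 200 bp and 1514 with no other peak within 5 kb; the last 3 are subsets by construction. At −log10 q of at least 5 the ratio of members to the other control pairs was 4.91 (H3K9la with H4K16la) and 3.69 (H4K8la with H4K16la), and 28.1 to the lactate pair, which had 68 regions; the cause was not tested. With 50% overlap these ratios stayed inside their intervals. Median −log10 q became 3.82 for H3K9la and 3.71 for H4K8la with peaks of at least 2, and 3.72 and 3.64 with 50% overlap. The median summit distance became 152 bp at −log10 q of at least 5 and 150 bp with 50% overlap. A peak of another list lay within 1 kb of 18.8% and within 10 kb of 83.4% of members, and another member within 20 kb of 14.6% and within 100 kb of 44.3%. For H4K16la lactate the members' share with a nearby peak, above that of all regions without its peak at 5 kb, was below it within 1 kb (6.91% against 7.03%). Against regions with H4K8la control alone, the order also turned within 500 bp for H3K9la lactate, H4K16la lactate and H4K16la control. Against regions with H3K9la control alone, the members' share for H4K16la lactate was lower within 5 kb (29.0% against 29.1%). Within 10 kb it was higher (56.0% against 54.3%). No paired analysis was possible because each group has 1 library. At the genome-wide background 7 to 10 fragments sufficed for a call in the absent lists.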

Other observations

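Regions that missed the rule by 1 list were more numerous than the members, with 4631 regions where exactly 1 of the other lists also had a peak. The further peak was from H3K9la lactate in 1376 of them, H4K8la lactate in 1000, H4K16la lactate in 1401 and H4K16la control in 854. Its median −log10 q was 3.39, 3.24, 3.63 and 3.33 in that order. It was below 2, and so near the calling threshold, in 8.58% of the regions for H3K9la lactate, 9.50% for H4K8la lactate, 5.28% for H4K16la lactate and 9.72% for H4K16la control. Over the whole lists that share was 10.2%, 13.0%, 8.60% and 11.2%.

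The share of members on chromosome X, 1.85%, was the sixth lowest of the 15 arrangements of 2 lists. The lowest was 1.13% (Wilson 0.77 to 1.67), for H3K9la control with H3K9la lactate alone, and the highest 3.82% (2.58 to 5.62), for H4K8la lactate with H4K16la control alone. These shares were not tested against each other.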
